A study of Rattus norvegicus with 6 samples.

Results

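Adhesive and basement membrane glycoproteins are the secreted matrix proteins that smooth muscle cells bind to, and 10 genes of this kind were followed here: Fn1, Tnc, Thbs1, Thbs2, Postn, Sparc, Lamb1, Lamb2, Lamc1 and Nid1. The members were all probe sets that the platform annotation paired with exactly 1 of these symbols. They came to 12 of the 31099 probe sets on the array and to 9 genes, since no probe set carried Thbs1 as its single symbol and Thbs1 was not analysed here. Expression was measured on Affymetrix arrays in smooth muscle cells from rat aorta at passage 3 to 5. The 3 static cultures and the 3 sheared cultures shared a 24 h period in 0.1% albumin without serum, and the sheared cultures were then exposed to laminar flow at 14 dyn per square centimetre for 24 h in a parallel-plate chamber. A serum level of 10% is also listed for all 6 cultures. Each static culture was paired by number with 1 sheared culture, and the comparison asks which transcripts differ under flow. The labels do not say whether pairs came from separate animals or cultures, so the spread behind each p-value is that of these 6 samples and may be technical.

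Fibronectin and the laminins are the main adhesive proteins of the vessel wall: fibronectin forms fibrils that cells grip through integrins, whereas laminins are trimers of an alpha, a beta and a gamma chain that polymerise into the basement membrane around each smooth muscle cell. Nidogens bind the gamma 1 laminin chain and link laminin to collagen IV and perlecan. Tenascin C, thrombospondins, periostin and SPARC are matricellular proteins, which modulate how cells attach and signal more than they bear load, and which are produced in remodelling arteries.

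The values are MAS5 signals, a linear measure of probe set brightness already scaled between arrays. Of the variance between arrays, 85.8% lay along a first principal component that split static from sheared arrays and 6.28% along a second on which sheared array 1 stood apart. Smooth muscle transcripts were present, with a summed signal of 12 markers of 11660 to 13127 on static and 8108 to 8543 on sheared arrays. Cald1, Tpm2, Tagln and Acta2 were the brightest of these. Myh11 went from a static mean of 128 to a sheared mean of 52.6 and Lmod1 from 72.4 to 6.10, and Des was dim at 16.8 and 17.2. Of the 12 markers 9 fell and 3 did not pass. Among all genes represented by their brightest probe set, 30.2% fell and 27.9% rose. Endothelial markers summed to 230 to 257 and 215 to 232 over 11 genes, of which 6 lay below the limit for testing, Pecam1, Kdr and Vwf among them, with mean signals under 5. Of the 5 tested, 3 did not pass, Erg at 44.1 and 40.6 among them. Flt1 rose on its brightest probe set (mean signal 27.8 to 53.6, log2 fold change 0.66, adjusted p = 0.0022). Other Flt1 probe sets did not pass (-0.22, adjusted p = 0.27, and -0.13, adjusted p = 0.41). Egfl7 fell on its brightest probe set (111 to 79.4, -0.40, adjusted p = 0.020), with a second not passing (-0.10, adjusted p = 0.59). That fall had adjusted p = 0.12 after median centring, 0.058 after quantile normalization and 0.13 without pair 3. Leukocyte markers summed to 214 to 264 and 166 to 206 over 10 genes, of which 4 lay below the limit, Ptprc at 1.43 in static and 1.87 in sheared cells. Of the 6 tested, Cd14, the brightest, fell (182 to 108, -0.68, adjusted p = 9.6e-04) and 3 did not pass. Cd68 (10.1 to 25.8, 0.70, adjusted p = 0.0037) and Coro1a (4.83 to 12.2, 0.44, adjusted p = 0.027) rose. The Coro1a call was lost without pair 2 (adjusted p = 0.087) and without pair 3 (adjusted p = 0.15). Fibroblast markers summed to 6746, 9884 and 9652 on static arrays 1 to 3 and 6281, 9733 and 9813 on sheared arrays 1 to 3, so that this sum was lower in pair 1 in both groups. Within it 4 of 11 genes fell (log2 fold changes of -2.25 for Pdgfra, -1.50 for Twist2, -1.35 for Col14a1 and -1.18 for Scara5), 4 rose (Dpt 0.46, Clec3b 0.43, Dcn 0.39 and Mfap5 0.30) and 3 did not pass. With no replicate block none of these 4 rises passed (adjusted p = 0.14 to 0.57). Second probe sets of Col14a1 (-0.29, adjusted p = 0.18) and Clec3b (0.29, adjusted p = 0.098) did not pass. Myh11, Des, Pecam1, Kdr, Vwf, Ptprc and Clec3b were named after their values were seen. The part of all these markers in the results was not tested. In a bulk culture, fewer cells of a type and less RNA per cell cannot be told apart.

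Laminin gamma 1, nidogen 1, periostin and laminin beta 2 were lower under flow, at 55.5% to 78.7% of their mean static signal, whereas fibronectin, tenascin C, SPARC, thrombospondin 2 and laminin beta 1 did not pass the test. In probe sets, 6 of 12 fell, 0 rose and 6 did not pass (limma with the pair as a block, adjusted p under 0.05, Benjamini-Hochberg over 21729 probe sets), and 1 member, Tnc, was higher at an unadjusted p under 0.05. Among all probe sets tested 28.5% fell and 24.3% rose. All 12 member probe sets lay above the limit on low signal. The 6 that fell were also the 6 in which every sheared array was below every static array, which held for 32.9% of all probe sets. No member changed 2-fold, and the members' median log2 fold change was -0.30, against -0.067 over all probe sets tested. The fall was smallest in pair 1 on 5 of the 6 fallen probe sets.

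**Figure D1:**
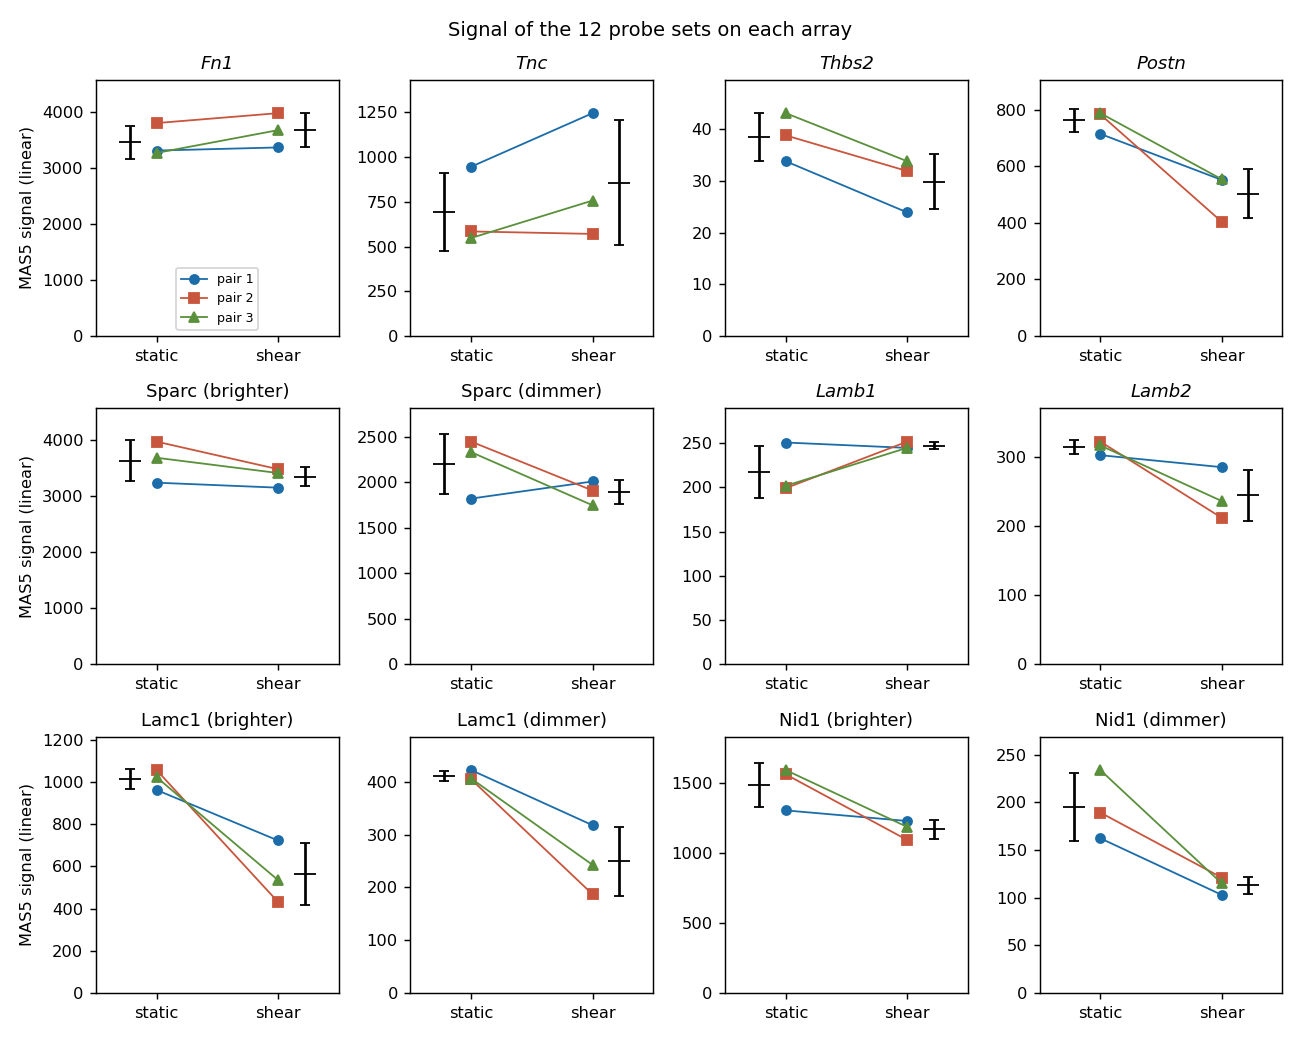
MAS5 signal (linear, vertical axes starting at 0) of the 12 member probe sets in static and sheared cultures, with a line for each of the 3 pairs and the mean ± SD (n = 3) beside each group. Both Lamc1 probe sets, both Nid1 probe sets, Postn and Lamb2 show all sheared arrays below all static arrays, while Tnc is higher in pair 1 than in pairs 2 and 3 in both groups.

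The promoters of 3 genes that fell are given as RefSeq sequence of build GRCr8 from 250 bases before to 50 after the annotated start. Whether these transcripts moved together was not tested. Motifs searched on both strands were GAGACC (shear stress response element), TGANTCA (AP-1) and CAGAC (SMAD-binding element), and matches are in capitals. Lamc1 lies at chr13:68051937-68052236 on the minus strand, Nid1 at chr17:93069036-93069335 on the plus strand and Postn at chr2:140677811-140678110 on the plus strand.
Lamc1: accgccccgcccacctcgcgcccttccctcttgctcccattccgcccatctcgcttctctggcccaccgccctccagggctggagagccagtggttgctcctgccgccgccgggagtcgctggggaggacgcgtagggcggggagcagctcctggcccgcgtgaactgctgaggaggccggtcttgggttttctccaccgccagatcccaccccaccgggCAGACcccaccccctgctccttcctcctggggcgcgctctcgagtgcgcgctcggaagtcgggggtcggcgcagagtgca
Nid1: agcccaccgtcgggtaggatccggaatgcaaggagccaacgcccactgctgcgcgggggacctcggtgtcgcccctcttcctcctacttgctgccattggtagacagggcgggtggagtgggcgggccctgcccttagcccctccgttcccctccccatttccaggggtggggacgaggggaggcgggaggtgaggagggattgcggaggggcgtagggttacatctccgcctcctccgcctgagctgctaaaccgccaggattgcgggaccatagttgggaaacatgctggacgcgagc
Postn: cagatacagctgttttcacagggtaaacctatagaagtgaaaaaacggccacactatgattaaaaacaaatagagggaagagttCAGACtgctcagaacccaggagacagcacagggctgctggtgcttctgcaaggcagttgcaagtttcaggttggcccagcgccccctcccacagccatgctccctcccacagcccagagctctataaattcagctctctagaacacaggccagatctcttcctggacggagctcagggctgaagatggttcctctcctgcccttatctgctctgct
A promoter sequence was matched for 7 of the 10 genes (Tnc, Thbs1, Postn, Sparc, Lamb1, Lamc1 and Nid1). None of the 7 held GAGACC or TGANTCA, which were found in 16.5% and 7.33% of the 33469 promoters of this length. The bases G and C made up a median of 63.7% of the 7 promoters and 51.7% of all promoters. The shares with a match were not adjusted for this. CAGAC was found in 4 of 7 (Tnc, Postn, Sparc and Lamc1) and in 50.1% of all promoters, and so in genes that fell and in genes that did not pass. No match says only that these letters were not in this window.

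The laminin gamma 1 chain Lamc1, a component of most laminin trimers and the chain that binds nidogen, showed the largest fall among the members. Its brighter probe set read 962.8, 1057.2 and 1023.4 on static arrays 1 to 3 and 723.2, 431.6 and 535.3 on sheared arrays 1 to 3. Every sheared array lay below every static array, and sheared array 1 was the highest of its group. The mean went from 1014 ± 47.8 to 563 ± 148 (SD, n = 3), or 55.5% of static, with a log2 fold change of -0.86 (95% interval -1.20 to -0.52, adjusted p = 0.0017). The paired differences were -0.41, -1.26 and -0.91 on the log2(signal + 16) scale on which all fold changes are given. The second Lamc1 probe set read 422.6, 405.0 and 406.5 against 318.0, 187.0 and 242.8 and fell by 0.72 on the log2 scale (adjusted p = 0.0026). The probe sets thus gave the same order of pairs and of arrays within the sheared group, and the brighter differed from the dimmer by -0.14 ± 0.113 on the log2 scale (SD, 3 pairs; exact sign-flip permutation p = 0.25, two-sided, the smallest that 3 pairs allow; chosen after seeing the data).

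The laminin beta chains, which pair with gamma 1 and an alpha chain in the trimer, did not move alike in their means. Lamb2, the beta 2 chain of mature vascular basement membrane, read 302.3, 321.9 and 316.4 in static and 285.0, 211.8 and 236.0 in sheared cells. The groups did not overlap, but sheared array 1 lay close to the static arrays. The mean went from 314 ± 10.1 to 244 ± 37.3 (SD, n = 3), a log2 fold change of -0.35 (95% interval -0.62 to -0.08, adjusted p = 0.037). This call was lost after median centring (-0.20, adjusted p = 0.17), without the filter on low signal (adjusted p = 0.060), without the intensity trend (adjusted p = 0.060), and without pair 2 (-0.24, adjusted p = 0.29) or pair 3 (-0.32, adjusted p = 0.18). Lamb1, the beta 1 chain, read 250.8, 199.2 and 201.9 in static and 244.7, 251.8 and 244.8 in sheared cells. Here static array 1 was as high as the sheared arrays, so the groups overlapped. The mean went from 217 ± 29.0 to 247 ± 4.07 (SD, n = 3; log2 fold change 0.18, 95% interval -0.07 to 0.44, adjusted p = 0.21), and without pair 1 Lamb1 rose (0.29, adjusted p = 0.0085). The response of Lamb1 exceeded that of Lamb2 by 0.05, 0.88 and 0.66 on the log2 scale in pairs 1 to 3, a mean of 0.53 ± 0.433 (SD, n = 3; exact sign-flip permutation p = 0.25, the smallest possible). It exceeded that of Lamc1 by 0.37, 1.58 and 1.17, a mean of 1.04 ± 0.614 (SD, n = 3; exact permutation p = 0.25), a comparison chosen after seeing the data.

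Nidogen 1, Nid1, which bridges laminin and collagen IV, fell on both of its probe sets but to different extents. The brighter read 1301.9, 1559.0 and 1589.4 in static and 1226.2, 1090.9 and 1183.9 in sheared cells, with a gap between the groups that was narrow in pair 1. The mean went from 1483 ± 158 to 1167 ± 69.2 (SD, n = 3; log2 fold change -0.34, 95% interval -0.55 to -0.13, adjusted p = 0.016). The call was lost after median centring (-0.19, adjusted p = 0.099), without the intensity trend (adjusted p = 0.059), and without pair 2 (-0.25, adjusted p = 0.12) or pair 3 (-0.30, adjusted p = 0.11). The dimmer read 162.3, 189.3 and 233.9 in static and 102.9, 121.0 and 115.0 in sheared cells. It went to 57.9% of its static mean, with a log2 fold change of -0.70 (95% interval -0.97 to -0.43, adjusted p = 0.0016). The difference between the probe sets was 0.50, 0.07 and 0.51 on the log2 scale in pairs 1 to 3, a mean of 0.36 ± 0.249 (SD, n = 3; exact permutation p = 0.25, chosen after seeing the data).

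Periostin, Postn, a matricellular protein of collagen-rich tissue, read 715.1, 784.1 and 788.5 in static and 552.2, 404.0 and 554.5 in sheared cells. The groups did not overlap, and sheared array 2 was the lowest. The mean went from 763 ± 41.2 to 504 ± 86.2 (SD, n = 3), or 66.0% of static, with a log2 fold change of -0.60 (95% interval -0.87 to -0.32, adjusted p = 0.0034). The paired differences were -0.36, -0.93 and -0.50.

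Sparc, a collagen-binding matricellular protein, had probe sets with overlapping groups that did not pass. The brighter read 3241.4, 3973.6 and 3685.8 in static and 3152.5, 3482.3 and 3413.7 in sheared cells (log2 fold change -0.11, 95% interval -0.23 to 0.01, adjusted p = 0.11). The dimmer read 1823.1, 2449.1 and 2333.4 in static and 2011.4, 1911.8 and 1749.3 in sheared cells (log2 fold change -0.21, 95% interval -0.45 to 0.04, adjusted p = 0.13). On the dimmer probe set pair 1 was higher under flow (0.14) and pairs 2 and 3 were lower (-0.35 and -0.41). Without pair 1, both fell (-0.15, adjusted p = 0.0072, and -0.38, adjusted p = 1.7e-06), as they did after quantile normalization (-0.28, adjusted p = 0.0018, and -0.32, adjusted p = 0.039). The brighter turned to 0.04 after median centring (adjusted p = 0.62).

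Thrombospondin 2, Thbs2, a matricellular inhibitor of angiogenesis, was dim, at 33.8, 38.8 and 43.1 in static and 23.9, 31.9 and 33.8 in sheared cells. Sheared array 3 equalled static array 1, so the groups met, although each pair was lower under flow (-0.32, -0.19 and -0.25). It gave a log2 fold change of -0.25 (95% interval -0.52 to 0.02, adjusted p = 0.10), and at this signal the added constant of 16 shrinks it: it was -0.37 with a constant of 1 and -0.13 with 64, without passing in either.

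Fibronectin, Fn1, read 3311.2, 3802.2 and 3269.0 in static and 3366.9, 3979.2 and 3675.4 in sheared cells. The groups overlapped, and all 3 pairs were slightly higher under flow (0.02, 0.07 and 0.17). The log2 fold change of 0.09 had an interval of -0.03 to 0.21 (adjusted p = 0.20). Its sign depended on the scaling, with -0.07 after quantile normalization (adjusted p = 0.28) and 0.23 after median centring (adjusted p = 0.015), and without pair 1 it rose by 0.12 (adjusted p = 0.033).

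Tenascin C, Tnc, a hexameric protein of injured and stretched vessel wall, varied more between pairs than between conditions. It read 946.8, 584.7 and 548.1 in static and 1246.2, 570.8 and 757.5 in sheared cells, with pair 1 highest in both groups. Pairs 1 and 3 were higher under flow (0.39 and 0.46) and pair 2 was not (-0.03). Its log2 fold change was 0.27 (95% interval 0.02 to 0.52), with an adjusted p = 0.068 with the pair as a block and an adjusted p = 0.44 without it. Tnc rose after median centring (0.42, adjusted p = 0.011), without pair 1 (0.21, adjusted p = 0.047) and without pair 2 (0.42, adjusted p = 0.019).

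**Figure D2:**
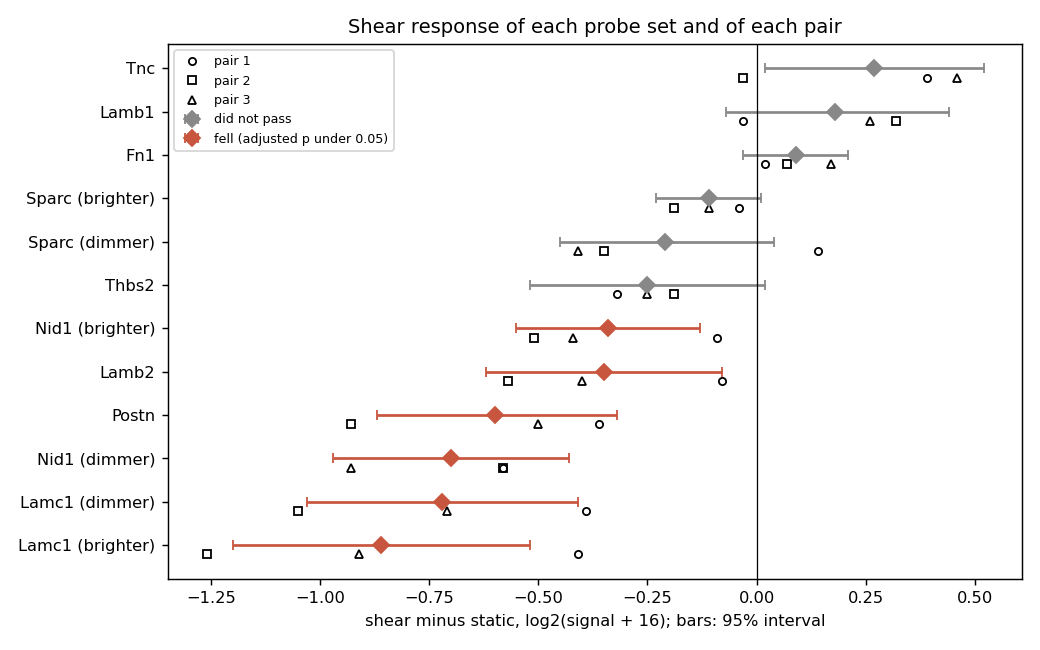
Log2 fold change (shear minus static on the log2(signal + 16) scale, horizontal axis) of each member probe set with its 95% interval from limma, and the difference in each of the 3 pairs as open symbols. The 6 fallen probe sets run from -0.34 to -0.86, and pair 1 lies nearest to 0 on 5 of them.

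These counts moved with the pair left out and with the scaling. Without pair 1, 8 member probe sets fell and 3 rose (33.1% and 26.8% of all probe sets). Without pair 2, 4 fell and 1 rose (21.9% and 18.6%), and without pair 3, 4 fell and 0 rose (20.9% and 17.7%). Every fit with a pair left out, here and elsewhere, kept only 1 residual degree of freedom. Median centring moved the median of all probe sets tested from -0.067 to 0.082 and the share of risen among all calls from 46.1% to 59.1%. Under it 4 member probe sets fell and 2 rose (21.7% and 31.4% of all). After quantile normalization 8 fell and 0 rose (24.9% and 27.4% of all). Both Lamc1 probe sets, the dimmer Nid1 probe set and Postn passed as fallen in each of the 13 other fits run.

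**Figure D3:**
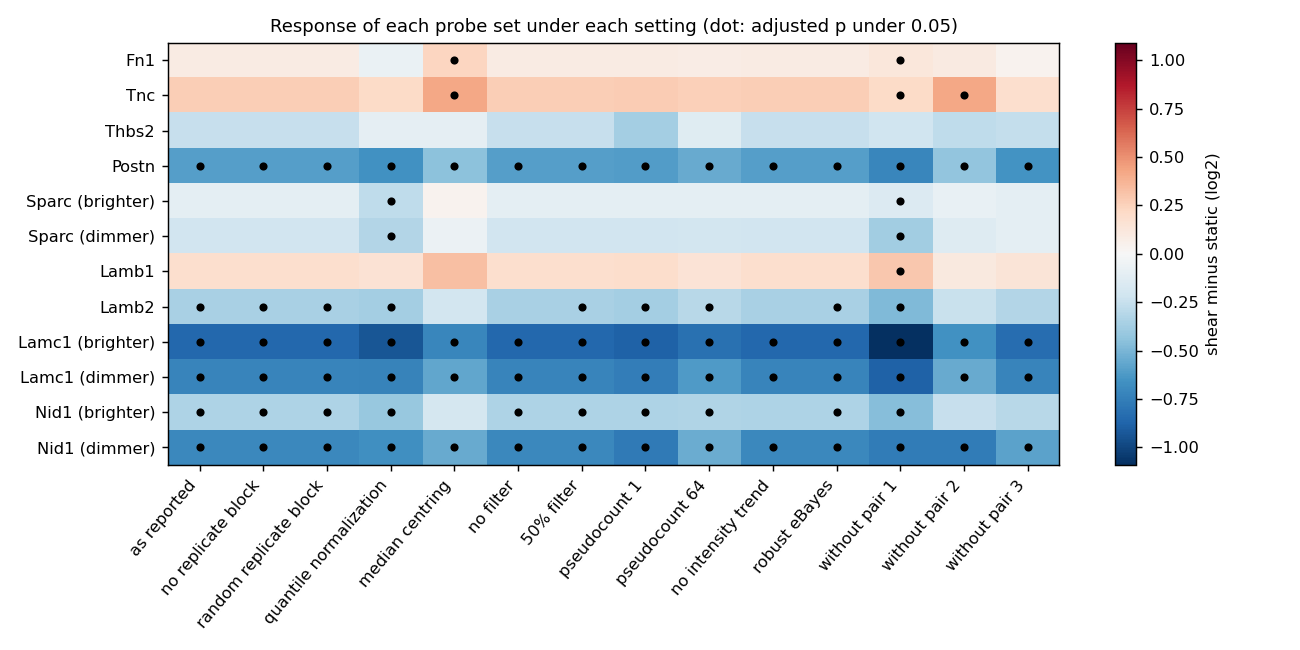
Log2 fold change of each member probe set (rows) under each setting (columns), coloured from blue (lower under shear) to red (higher) with the scale beside it, with a dot where the adjusted p was under 0.05. Rows for Postn, both Lamc1 probe sets and the dimmer Nid1 probe set carry a dot in every column, while those for Fn1, Tnc and Sparc carry one in a few columns, Lamb1 in 1 column (without pair 1) and Thbs2 in none.

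Around these members, other genes of the basement membrane fell more often than they rose, and nidogen 2 was the single gene of that list that rose. Each gene was represented by its brightest probe set; among all 11248 genes tested in that way 30.2% fell and 27.9% rose, with a median log2 fold change of -0.054. Of 25 tested basement membrane genes 14 fell, 1 rose and 10 did not pass, with a median of -0.34. After median centring 9 fell and 2 rose (23.3% and 35.0% of all genes), without pair 2 8 fell and 1 rose (23.3% and 21.3%), and without pair 3 9 fell and 1 rose (22.2% and 20.7%). Smoc1, a SPARC-related glycoprotein, went from 1184 ± 56.6 to 304 ± 80.5 (SD, n = 3; log2 fold change -1.94, adjusted p = 1.3e-05), and Tinagl1 fell by 1.50 from a low signal of 64.2 ± 25.8. Col6a3, a collagen VI chain, fell by 1.70 on the log2 scale, the perlecan gene Hspg2 by 1.29 and Col15a1, which anchors basement membrane to interstitial fibrils, by 1.17. The list was drawn broadly, and Col6a3 and the other collagen VI genes Col6a1 and Col6a2 are among its 14 fallen genes. Col6a1 and Col6a2 were named after their values were seen. Pxdn, the enzyme that crosslinks collagen IV, fell by 0.25 (adjusted p = 0.036), a call lost without the block (adjusted p = 0.094), after median centring and without pair 2 or pair 3, and a second probe set did not pass (-0.21). The collagen IV chain Col4a1 did not pass (0.16, adjusted p = 0.20) but passed after median centring (0.31, adjusted p = 0.021).

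Nid2, the second nidogen, read 689.0, 405.5 and 414.7 in static and 1098.5, 1255.0 and 1239.1 in sheared cells, with no overlap. It rose by 1.27 on the log2 scale (95% interval 0.87 to 1.66, adjusted p = 5.3e-04). Its response exceeded that of the brighter Nid1 probe set by 0.75, 2.10 and 1.96 in pairs 1 to 3, a mean of 1.60 ± 0.746 (SD, n = 3; exact sign-flip permutation p = 0.25, the smallest possible, chosen after seeing the data). Among the laminin alpha chains, named after their values were seen, Lama5 fell by 0.98 (adjusted p = 8.4e-04), although a second probe set did not pass (0.16), and Lama2 by 0.63 (adjusted p = 0.0016). Lama4 did not pass, at 343 in static and 336 in sheared cells (log2 fold change -0.04, adjusted p = 0.79). Lama3 was dim and fell by 0.37 (adjusted p = 0.044), a call lost without the block (adjusted p = 0.31), after median centring (-0.22, adjusted p = 0.20) or quantile normalization (adjusted p = 0.12), and without pair 2 or pair 3 (adjusted p = 0.13 in both). Lama1, at 7.27 in static and 9.77 in sheared cells, did not pass.

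Other matricellular and adhesive glycoproteins had 12 fallen, 2 risen and 14 not passing of 28 tested, with a median of -0.21. Over all genes 30.2% fell and 27.9% rose. The risen count was 6 after median centring, 5 after quantile normalization and 5 without pair 1, and 1 without pair 2 or pair 3 and with no replicate block or a random one. Among all genes 35.0% rose after median centring, 3367 of 11239 after quantile normalization, 30.9% without pair 1, 21.3% without pair 2, 20.7% without pair 3, and 27.6% and 28.1% with no replicate block and a random one. Ccn5, a CCN protein that restrains smooth muscle growth, went from 2582 ± 162 to 383 ± 55.4 (SD, n = 3; log2 fold change -2.71, adjusted p = 1.2e-06). Srpx fell by 1.70 on the log2 scale, Ccn3 by 1.17, Ccn1 by 0.93, the follistatin-like protein Fstl1 by 0.51 and osteopontin Spp1 by 0.45. Ccn2, the connective tissue growth factor, did not pass (-0.09, adjusted p = 0.31; -0.24, adjusted p = 0.012 after quantile normalization; adjusted p = 0.0022 without pair 1). Emilin2 rose by 0.93 (adjusted p = 0.0027) from 32.0 ± 5.20 to 76.8 ± 22.5 (SD, n = 3). The thrombospondin Thbs3, also named after its values were seen, fell by 0.55 (adjusted p = 0.0037).

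Receptors for these glycoproteins moved in both directions, with 13 fallen, 5 risen and 11 not passing of 29 tested and a median of -0.22. Among all genes 30.2% fell and 27.9% rose. After median centring 10 fell and 8 rose (23.3% and 35.0% of all genes). As means over a gene's probe sets 11 fell and 8 rose (32.6% and 29.4% of all genes). The beta 1 integrin subunit Itgb1, shared by most fibronectin and laminin receptors, rose by 0.24 (adjusted p = 0.0043), a call lost after quantile normalization (0.08, adjusted p = 0.22). Itga5, its partner in the fibronectin receptor and, like Dag1, Cd47 and Itgav, named after its values were seen, read 78.8, 90.0 and 68.4 in static and 220.9, 170.7 and 169.5 in sheared cells (log2 fold change 1.09, adjusted p = 2.6e-04), with all sheared arrays higher. Itgb3 rose by 1.77 from a mean of 11.0 ± 3.27 to 76.3 ± 9.88 (SD, n = 3), and the syndecan Sdc1 by 1.38, with a second Sdc1 probe set not passing (0.33). Itgb5 fell by 1.40, with 1 of its 3 probe sets not passing (-0.24). Itga8, an alpha subunit for fibronectin and tenascin C, fell by 1.34. Dag1, which encodes the laminin receptor dystroglycan, fell on all 4 of its probe sets, by 1.14 on the brightest (adjusted p = 4.3e-05), and the thrombospondin receptor Cd47 fell by 0.86 (adjusted p = 5.3e-04). Sdc2 (0.08), Anxa2 (-0.16) and Rpsa (0.13) did not pass on their brightest probe sets, though the other probe sets of Sdc2 fell (-0.94 and -0.75) and 1 of the 2 others of Rpsa rose (0.27, adjusted p = 0.013). After median centring Sdc2 (adjusted p = 0.036) and Rpsa (adjusted p = 0.0030) passed as risen, and Anxa2 passed as fallen after quantile normalization (adjusted p = 0.0035) and without pair 1 (adjusted p = 1.4e-04). The brightest probe set of Itgav fell by 0.31 (adjusted p = 0.016), a call lost after median centring (-0.16, adjusted p = 0.18) and without pair 2 (adjusted p = 0.11) or pair 3 (adjusted p = 0.092), while its other probe sets rose by 1.29 and 1.31 on the log2 scale.

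Focal adhesion proteins, which tie integrins to actin, had 12 fallen, 6 risen and 7 not passing of 25, with a median of -0.24. Over all genes 30.2% fell and 27.9% rose. The balance turned after median centring, with 7 fallen and 8 risen of 25 (23.3% and 35.0% of all genes). Without pair 2 or pair 3, 7 fell and 5 rose in each (23.3% and 21.3% of all genes, and 22.2% and 20.7%), and without pair 1, 13 fell and 9 rose (35.2% and 30.9%). Lims2 went from 242 ± 8.74 to 16.4 ± 3.00 (SD, n = 3; log2 fold change -3.00, adjusted p = 2.2e-06), and Fblim1 fell by 1.38, vinculin Vcl by 0.83 and Actn4 by 0.43. Filamin Flna fell by 0.38 (adjusted p = 0.016), a call lost after median centring (adjusted p = 0.072) or without pair 2 or pair 3. Parvb rose by 1.65 and Tns3 by 1.31, and Actn1 did not pass (0.03).

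Genes of matrix secretion and assembly had 10 fallen, 4 risen and 7 not passing of 21, with a median of -0.28. Over all genes 30.2% fell and 27.9% rose. The collagen chaperone Serpinh1 went from 2623 ± 230 to 641 ± 163 (SD, n = 3; log2 fold change -2.03, adjusted p = 2.9e-05), with a smaller fall of 0.45 on a second probe set. Loxl3 fell by 2.13, the lysyl hydroxylase Plod2 by 1.60 and the secretory kinase Fam20c by 1.40. The chaperone Hspa5 rose by 0.42 (adjusted p = 3.1e-04), and P4hb (0.08), Pdia3 (-0.11) and Lox (0.14) did not pass, Lox with a second probe set that rose (0.58). P4hb (0.23, adjusted p = 0.017) and Lox (0.29, adjusted p = 0.0062) passed after median centring, and Pdia3 after quantile normalization (-0.25, adjusted p = 0.0053).

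**Figure D4:**
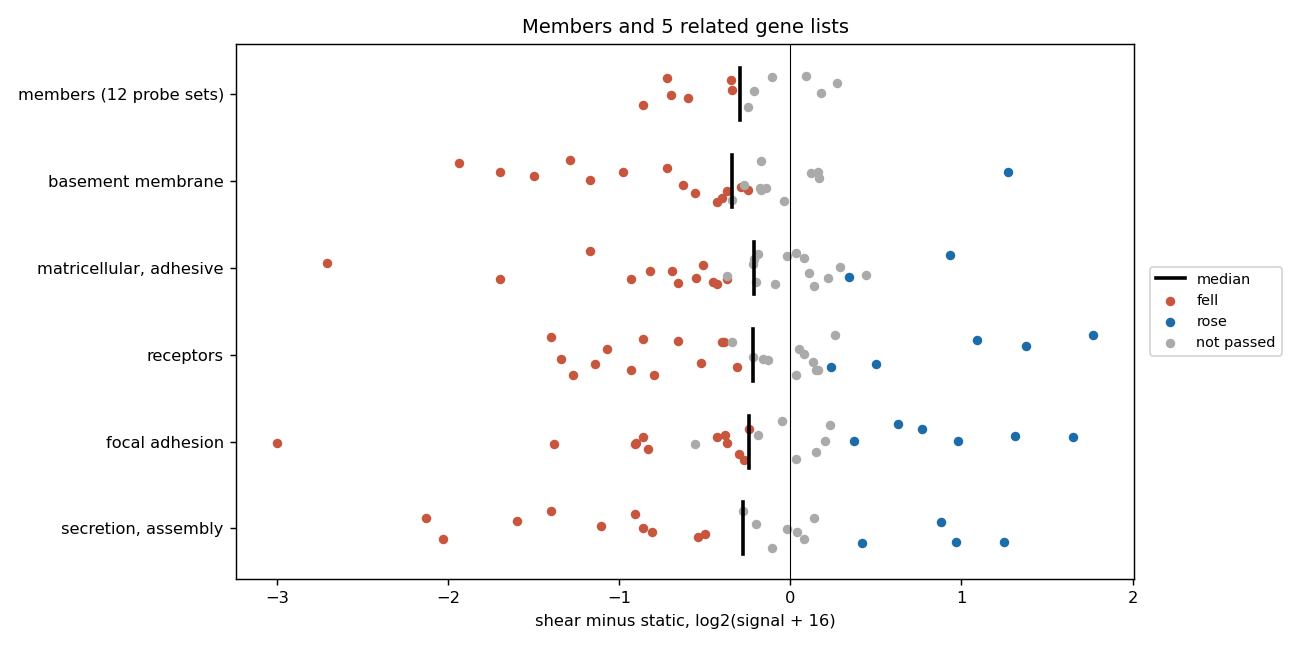
Log2 fold change (shear minus static, horizontal axis) of the 12 member probe sets and of every tested gene in 5 related lists, coloured by call, with the median of each row as a black bar. Medians run from -0.21 to -0.34, the members at -0.30, and Nid2 is the single risen basement membrane gene at 1.27.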

How the data were processed

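Per the submitters' processing notes, the authors made the deposited signal intensity with MAS5; no MAS5 version is given in the sources used here. These deposited values are linear, with 1 value per probe set and a mean of 100.0 on every array after trimming 2% at each end. The 3 static and 3 sheared arrays were compared on log2(signal + 16) after leaving out 57 control probe sets and the 30% of the others with the lowest mean (under 4.50 on that scale), which left 21729. The fit used limma 3.58.1 (R 4.3.3; lmFit and eBayes with an intensity trend, two-sided, Benjamini-Hochberg, threshold 0.05), with the pair number as a fixed block because the series design calls the experiment paired. Deviations from group means correlated by 0.0712, 0.0648 and 0.0626 within pairs 1 to 3. Between static and sheared arrays of different pairs they correlated by -0.0714 to 0.0175. All of these were small, so members of a pair shared little variation. The fit with the block kept 2 residual degrees of freedom.

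Genes were named from the 20826 probe sets with 1 symbol, and gene lists used each gene's brightest probe set. Members and lists were chosen with earlier results of these data known. Named genes were all members, and of each list the 4 brightest and up to 4 others with the largest change that passed with 1 sign in all pairs; other names are marked in the text. Paired differences between related genes were tested by exact sign-flip permutation. Alternatives covered the block, scaling, filter, constants of 1 and 64, variance model, each pair left out, a threshold of 0.1 and means over probe sets. The planned Thbs1 against Thbs2 difference was not run, as no probe set carried Thbs1 as its single symbol. The fit was tested on simulated arrays. Precision is limited by the number of arrays, and a low signal may be background. The highest signal on an array was 4762.6 to 6324.6. Fn1, the brighter Sparc probe set and Ccn2 were bright, with static means of 3461, 3634 and 4413. Whether changes are compressed at such signals was not tested. Figures were drawn with matplotlib 3.10.9 (Python 3.11.15).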

Additional observations from a re-analysis of the deposited data

How the results depend on the processing

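Over all probe sets, 5283 rose and 6188 fell, and no alternative moved either count by over 1.5 times; with no replicate block they were 5232 and 6198, and the block changed no call among the members (6 fell and 0 rose in both fits). Of the 168 log2 fold changes compared for member probe sets, 146 kept their direction and side of the threshold. Settings that changed only the block, filter, variance model or threshold left the log2 fold change the same by construction. In those settings only the side of the threshold could change. Of the 28 counts of risen or fallen members, 24 lay within 1.5 times the reported count.

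Member probe sets risen numbered 2 after median centring, 1 at a threshold of 0.1 (Tnc, 0.27) and 0 to 3 with a pair left out. Fallen ones numbered 4 after median centring, 8 after quantile normalization, 6 at a threshold of 0.1 and 4 to 8 with a pair left out. At a threshold of 0.1, 27.1% of all probe sets rose and 32.4% fell. After median centring Fn1 (0.23) and Tnc (0.42) passed, Lamb2 (-0.20) and the brighter Nid1 probe set (-0.19) did not, and the brighter Sparc probe set turned to 0.04; after quantile normalization Sparc passed (-0.28 and -0.32) and Fn1 turned to -0.07. Lamb2 (-0.35) did not pass without the filter or the intensity trend, nor the brighter Nid1 probe set (-0.34) without the trend. With a pair left out, log2 fold changes ran from 0.04 to 0.12 for Fn1, 0.18 to 0.42 for Tnc, 0.11 to 0.29 for Lamb1, -0.48 to -0.24 for Lamb2, -0.46 to -0.25 and -0.76 to -0.58 for Nid1, -0.15 to -0.08 and -0.38 to -0.11 for Sparc, -1.09 to -0.66 and -0.88 to -0.55 for Lamc1, -0.71 to -0.43 for Postn and -0.28 to -0.22 for Thbs2. The Sparc probe sets differed by -0.01 to 0.23.

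Of the list counts, basement membrane genes fallen were 9 and risen 2 after median centring, with 8 to 15 fallen when a pair was left out. Focal adhesion genes fallen were 7 after median centring, where 8 rose, and 7 to 13 with a pair left out. Matricellular genes risen were 6 after median centring, 5 after quantile normalization, 4 at a threshold of 0.1, 1 with no replicate block or a random one, and 1 to 5 with a pair left out. Receptor genes risen were 8 after median centring and 8 as means over probe sets. The shares over all genes in these settings are given above, except at a threshold of 0.1, where 27.1% of all probe sets rose. The causes were not tested.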
